A study of Sus scrofa with 6 samples.

Results

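The genes described here are 9 transcription factor genes that pattern the limb and the trunk of the embryo and lie outside the HOX clusters, namely PITX1, TBX3, TBX4, TBX5, TBX15, SHOX2, LBX1, MEOX1 and MEOX2. They were compared between the longissimus thoracis (LT), a muscle of the back, and the semitendinosus (ST), a muscle of the hindlimb. All 9 were found among the 25973 genes with an mRNA in the files, 7 by their Ensembl symbol and 2 (PITX1 and TBX15) by position, since their Ensembl entries carry no symbol. RNA came from LT and ST of 3 wild-type Min pigs, a Chinese local breed, aged 210 days, with no treatment, which gave 6 libraries, 3 per muscle. Samples of LT and ST with the same replicate number were taken as the same pig. Values are FPKM (fragments scaled to transcript length and library size), a level per length, added up over the transcripts of a gene.

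As background, the limb bud grows from the flank of the embryo, and the factors here act at different steps. TBX5 is needed for the forelimb bud, while PITX1 and TBX4 are known for the hindlimb bud, and TBX3, TBX15 and SHOX2 shape the growing limb skeleton and connective tissue. LBX1 is switched on in muscle precursors that leave the somites, the segmented blocks along the trunk, for the limb, and MEOX1 and MEOX2 are homeobox genes of the somites. Adult muscle holds fibres, satellite cells, connective tissue, vessels and nerves, and in bulk RNA fewer cells of a type and less RNA per cell cannot be told apart.

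The library of ST replicate 2 stood apart from the other ST libraries. On log2(FPKM + 0.1) over 19679 genes, Pearson's r across genes was 0.970 between ST replicates 1 and 3, and 0.953 and 0.949 between ST replicate 2 and these libraries. Its r with LT of the same pig was 0.960, and that of ST replicates 1 and 3 with LT of their own pigs was 0.9567 and 0.9465. TNNT1, the slow skeletal troponin T, was at 348, 207 and 246 FPKM in LT replicates 1, 2 and 3 and at 1746, 382 and 2079 in ST replicates 1, 2 and 3, so that ST replicate 2 lay next to LT. TNNT3, the fast skeletal troponin T, was at 8127, 7992 and 5185 in LT and at 1046, 4518 and 161 in ST. HOXC11, a posterior HOX gene chosen for this check after its values were seen, was at 0.0375, 0 and 0.101 in LT and at 2.60, 1.95 and 2.17 in ST, and HOXA10 was at 0, 0.0900 and 0.836 in LT and at 6.55, 13.7 and 6.54 in ST. Thus ST replicate 2 was with the other ST libraries for these HOX genes, and the results of the 9 genes are given with and without it.

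All 9 genes had a higher mean log2 value in ST than in LT, against 61% of all genes tested. In 6 of them (TBX3, TBX4, TBX5, LBX1, MEOX1 and MEOX2) every ST library was above every LT library, which held for 16.7% of all genes, 3282 of 19679. For TBX5 this rests on 0.00986 FPKM in ST replicate 2 against 0.00945 in LT replicate 1, both under the FPKM of 0.1 used as the minimum. The median log2 fold change (ST minus LT) was 1.09 for the 9 genes and 0.13 for all genes. With limma and Benjamini-Hochberg adjustment over all 19679 genes, none of the 9 passed an adjusted p of 0.05 with an absolute log2 fold change above 1, a call made for 0.579% of all genes. At an unadjusted p under 0.05 in either direction there were 6 of the 9, against 19% of all genes, and 5 of them also passed the fold, against 4.63% of all genes called higher in ST by that rule. With the pig as a block MEOX1 was called, where 2.95% of all genes were called higher in ST. Without ST replicate 2, 8 genes could be tested and TBX3, TBX5 and LBX1 were called higher in ST, against 3.34% of all genes. That library was set apart after its values were seen, and the fit without it holds fewer ST libraries. In TBX3, TBX5 and LBX1 it was the lowest ST library, so leaving it out was bound to raise their fold change. Leaving out any other library gave no call among the 9.

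**Figure D1:**
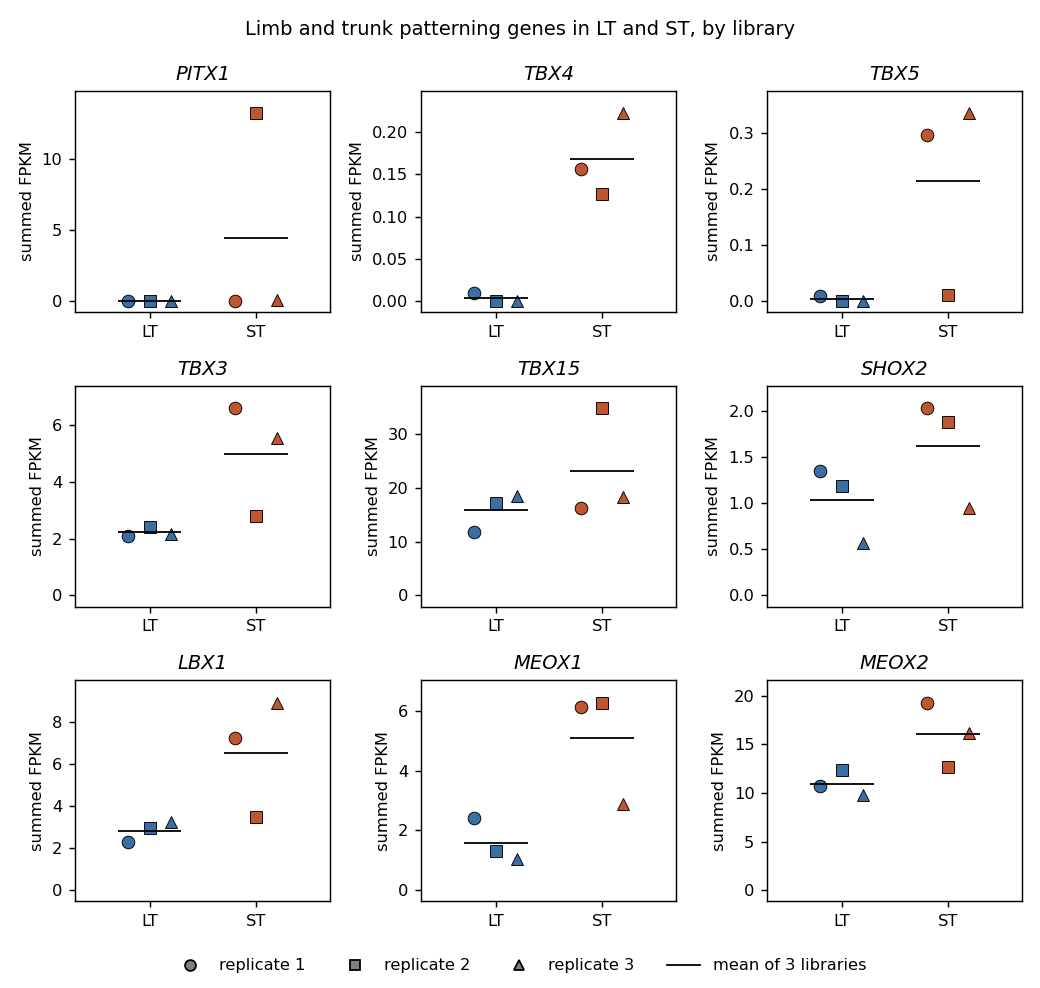
Summed FPKM (vertical axis, a separate linear scale for each gene) of the 9 genes in LT and ST, with 1 point per library, the shape giving the replicate number and the line the mean of 3 libraries. PITX1 is high in ST replicate 2 alone at 13.3, while TBX3, TBX5 and LBX1 are lowest among the ST libraries in that replicate.

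The factors that tell hindlimb from forelimb were at or near 0 in LT. In ST, PITX1 and TBX5 differed widely between libraries, while TBX4 was at a low level in all of them. PITX1, the hindlimb homeobox gene (chr2:137198870-137206979, minus strand, on Sscrofa11.1), was listed at 0, 0 and 0.0137 FPKM in LT replicates 1, 2 and 3, and at 0, 13.3 and 0.0658 in ST. ST replicate 2 was the only library above the minimum of 0.1, and ST replicate 1 was listed at 0 like LT replicates 1 and 2. By limma the log2 fold change was 2.54 ± 1.60 (SE, n = 3 per muscle, adjusted p = 0.430), with a 95% interval from -1.15 to 6.22, and the exact permutation p (2-sided) was 0.4. Without ST replicate 2, PITX1 had no value above the minimum and was not tested. An unannotated mRNA of 3 exons on the opposite strand overlaps PITX1 and followed it, at 0 in all LT libraries and at 0, 3.68 and 0.0411 in ST. The libraries were made with a kit that keeps the strand, but the strand setting of the later steps is not given in the sources used here, and whether reads of these overlapping genes were kept apart was not tested.

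TBX4, the T-box gene of the hindlimb bud (chr12:36801730-36830430, minus strand), was listed at 0.00937, 0 and 0 FPKM in LT and at 0.156, 0.126 and 0.222 in ST. All 3 ST libraries were above the minimum, though at a low level, and no LT library was. This gene had the lowest unadjusted p of the 9 (0.00169), with a log2 fold change of 1.36 ± 0.30 (SE, n = 3 per muscle, limma adjusted p = 0.0735). The adjusted p was 0.0560 with the pig as a block and 0.0555 without ST replicate 2. Because LT was near 0, the size rests on the constant added before the log, and the log2 fold change ranged from 0.22 to 3.80 over 17 alternative settings with adjusted p from 0.0504 to 0.239.

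TBX5, the T-box gene of the forelimb bud (chr14:37773605-37824400, plus strand), was listed at 0.00945, 0 and 0 FPKM in LT and at 0.296, 0.00986 and 0.334 in ST. ST replicates 1 and 3 were above the minimum, while ST replicate 2 was at the level of LT replicate 1. Between the muscles the log2 fold change was 1.37 ± 0.53 (SE, n = 3 per muscle, limma adjusted p = 0.214), and without ST replicate 2 it was 2.01 with an adjusted p of 0.0202, a call. Over 16 alternatives it ranged from 0.26 to 3.36. PITX1 and TBX5 were therefore above the minimum in different ST libraries, PITX1 in replicate 2 and TBX5 in replicates 1 and 3, and TBX4 in all 3.

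Of the other factors of limb growth, TBX3 was higher in ST replicates 1 and 3. TBX3, a T-box repressor (chr14:37582822-37596767, plus strand, 176838 bp from TBX5), was at 2.12, 2.40 and 2.18 FPKM in LT and at 6.61, 2.79 and 5.56 in ST. The means were 2.23 ± 0.151 and 4.99 ± 1.98 (SD, n = 3 each), with no overlap, and ST replicate 2 lay just above the highest LT library. The log2 fold change was 1.04 ± 0.31 (SE, n = 3 per muscle, limma adjusted p = 0.135), and without ST replicate 2 it was 1.41 (adjusted p = 0.0127). The log2 difference between ST and LT was 1.60 in pig 1, 0.21 in pig 2 and 1.32 in pig 3.

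TBX15 was the most abundant of the 9 genes per length in both muscles. This T-box gene (chr4:101922251-102032277, plus strand), which is also known for its expression in fast glycolytic muscle fibres, was at 11.9, 17.2 and 18.5 FPKM in LT and at 16.3, 34.8 and 18.3 in ST. ST replicate 2 was the highest, and ST replicates 1 and 3 lay within the range of LT. The log2 fold change was 0.48 ± 0.31 (SE, n = 3 per muscle, limma adjusted p = 0.444) and 0.15 without ST replicate 2 (adjusted p = 0.749), with 95% intervals from -0.24 to 1.21 and from -0.40 to 0.70.

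SHOX2, a homeobox gene of the proximal limb (chr13:97879281-97890447, minus strand), was at 1.35, 1.19 and 0.565 FPKM in LT and at 2.04, 1.88 and 0.945 in ST. The muscles overlapped, and pig 3 was the lowest in both. Within pigs the log2 differences lay close together, at 0.56, 0.62 and 0.65 for pigs 1, 2 and 3. The log2 fold change was 0.61 with an SE of 0.39 without the block and 0.20 with it, and the limma adjusted p was 0.433 and 0.118, respectively. Leaving out ST replicate 2, with no block, gave a log2 fold change of 0.48 (adjusted p = 0.554).

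Of the genes of somites and migrating muscle precursors, LBX1 was, like TBX3, lowest among the ST libraries in replicate 2. LBX1, the homeobox gene of migrating precursors (chr14:112284261-112286216, minus strand), was at 2.30, 2.93 and 3.26 FPKM in LT and at 7.26, 3.46 and 8.91 in ST. The muscles did not overlap, and ST replicate 2 was just above LT. The means were 2.83 ± 0.489 and 6.54 ± 2.80 (SD, n = 3 each), and the log2 fold change was 1.09 ± 0.34 (SE, limma adjusted p = 0.150, n = 3 per muscle). Without ST replicate 2 it was 1.49 (adjusted p = 0.0160).

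MEOX1 had the largest log2 fold change among the 6 genes above the minimum in all libraries. It lies on chr12:19431029-19452007 (plus strand) and was at 2.42, 1.30 and 1.03 FPKM in LT and at 6.14, 6.28 and 2.88 in ST. Every ST library was above every LT library, and pig 3 was the lowest in both muscles. The log2 differences were 1.31, 2.19 and 1.40 in pigs 1, 2 and 3. In ST replicate 2, 82.9% of the value was a transcript of 2 exons. The other transcript of MEOX1, of 3 exons, was there at 1.07 FPKM, against 1.30 in LT of the same pig. The lack of overlap and the difference of pig 2 thus rest on the transcript of 2 exons. Over all libraries the log2 fold change was 1.63 ± 0.39 (SE, n = 3 per muscle, limma adjusted p = 0.0875), and with the pig as a block the adjusted p was 0.0227, a call. Without ST replicate 2 and with no block the log2 fold change was 1.44 (adjusted p = 0.0968).

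Its paralog MEOX2 (chr9:84943197-85010157, minus strand) was at 10.7, 12.3 and 9.81 FPKM in LT and at 19.3, 12.6 and 16.2 in ST. The muscles did not overlap, but ST replicate 2 was close to LT of the same pig, with a log2 difference of 0.037. The log2 fold change was 0.53 ± 0.20 (SE, n = 3 per muscle, limma adjusted p = 0.214) and 0.69 without ST replicate 2 (adjusted p = 0.0820). The exact permutation p (2-sided) was 0.1, the smallest that 3 against 3 libraries allow, for TBX3, TBX4, TBX5, LBX1, MEOX1 and MEOX2, 0.3 for SHOX2 and 0.5 for TBX15. For TBX5 it rests on the small gap between ST replicate 2 and LT replicate 1, both near 0.

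**Figure D2:**
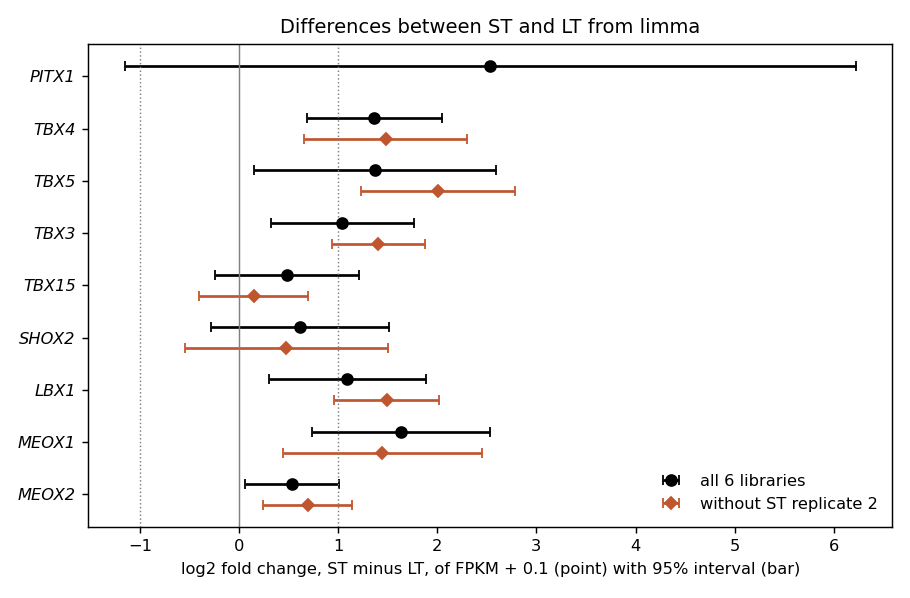
Log2 fold change of ST against LT on FPKM + 0.1 (horizontal axis) for each gene, from limma over all 6 libraries (circles) and without ST replicate 2 (diamonds), with 95% intervals as bars and dotted lines at -1 and 1. The interval of PITX1 runs from -1.15 to 6.22, and those of TBX3, TBX5 and LBX1 are narrower without ST replicate 2.

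In order of level per length, LT held TBX15, MEOX2, LBX1, TBX3, MEOX1 and SHOX2, at means from 15.9 to 1.03 FPKM, with TBX4, TBX5 and PITX1 near 0. The libraries of neighbours in this order overlapped except between MEOX2 and LBX1 and between SHOX2 and PITX1. In ST the order was TBX15, MEOX2, LBX1, MEOX1, TBX3, PITX1, SHOX2, TBX5 and TBX4, from 23.1 to 0.168 FPKM. There neighbours overlapped except between MEOX2 and LBX1 and between SHOX2 and TBX5, and the place of PITX1 rests on ST replicate 2.

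The files list 15 transcripts of the 9 genes, of which 12 passed the filter. None was called in a limma fit over 52102 transcripts, where 0.146% were, and 4 had an unadjusted p under 0.05, against 9.69% of all transcripts tested. The main transcript of MEOX1 in ST replicate 2 was not that of the other libraries. Its transcript of 3 exons (ENSSSCT00000018915) was at 2.32, 1.30 and 0.989 FPKM in LT and at 5.69, 1.07 and 2.86 in ST. Its transcript of 2 exons (ENSSSCT00000088926) was at 0.101, 0.00019 and 0.0452 in LT and at 0.454, 5.20 and 0.0237 in ST. The shorter transcript thus held 82.9% of the gene's FPKM in ST replicate 2, and from 0.0147% to 7.39% in the other libraries. On the transcript of 3 exons alone, ST replicate 2 lay within the range of LT. That transcript was not called without the block (limma, adjusted p over all transcripts 0.724). It was not called with the pig as a block either, unlike the summed gene.

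TBX3 had a pair of transcripts with 8 exons each, of which ENSSSCT00000010813 held 90.4% of the gene in LT and 84.9% in ST, and ENSSSCT00000030119 the rest. The minor one was at 0.196, 0.124 and 0.323 FPKM in LT and at 1.24, 0.380 and 0.634 in ST, so both transcripts were higher in each ST library than in any LT library. SHOX2 was read mainly as ENSSSCT00000025053, which held 97.5% of the gene in LT and 91.1% in ST. A second annotated transcript of TBX5 was listed at 0 in all libraries.

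**Figure D3:**
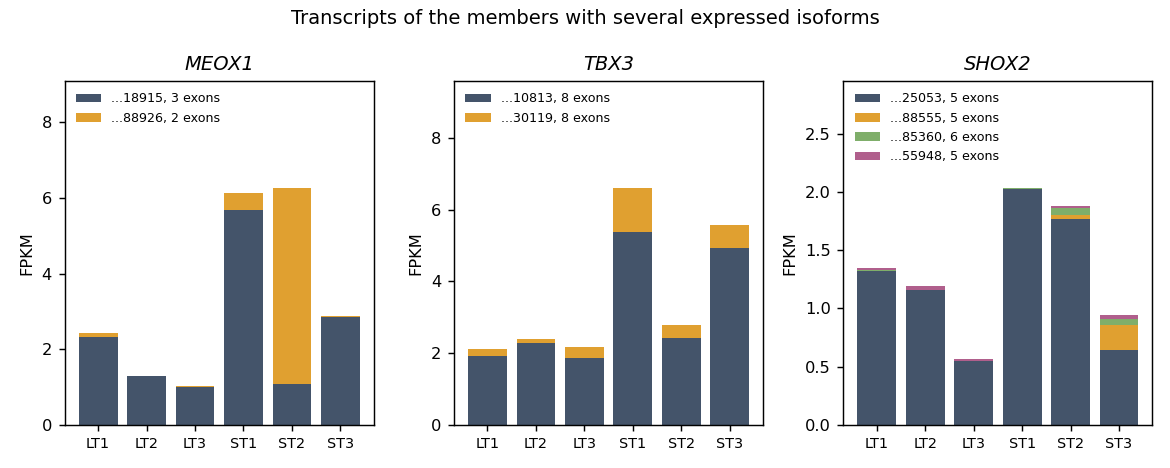
FPKM (vertical axis) of the transcripts of MEOX1, TBX3 and SHOX2 in each library, stacked and coloured by transcript (last digits of the Ensembl ID and number of exons). In MEOX1 the transcript of 2 exons makes up 82.9% of the bar of ST replicate 2 and at most 7.39% of any other.

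Within 100000 bp of the 9 genes the files hold 25 lncRNAs, of which 22 passed the filter, 16 of them with a higher mean log2 value in ST. The share of all transcripts higher in ST was not computed, so this count has no background beside it. None was called with limma and none had an unadjusted p under 0.05. The one with the lowest p, the annotated ENSSSCT00000078028, starts 1861 bp beyond MEOX2, and was at 0.423, 0.246 and 0.950 FPKM in LT and at 1.69, 0.663 and 1.87 in ST (adjusted p = 0.529). Near TBX4, the intergenic LNC_001933 was at 0 in all LT libraries and at 0.183, 0.0105 and 0.161 in ST (adjusted p = 0.547). In MEOX1 lies the intronic LNC_002203, at 0.140, 0.0615 and 0.0928 in LT and at 0.375, 0.365 and 0.119 in ST (adjusted p = 0.581).

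The likeness of other genes to 7 of the 9 was taken as the root mean square difference of log2(FPKM + 0.1) over the 6 libraries, each gene centred on its mean, among 11269 genes with a mean of at least 1 FPKM. TBX4 and TBX5, with means under 1 FPKM in both muscles, were left out. For TBX3 the nearest were PRDX2 (0.0912) and BCLAF3 (0.123), for MEOX2 HNRNPH3 (0.0755) and PSMB9 (0.0768), and for LBX1 an unannotated gene (0.105) and TMEM178A (0.128). TBX15 was nearest to a gene with no symbol (0.104) and CEBPB (0.127), SHOX2 to an unannotated gene (0.136) and ADAMTS12 (0.137), and MEOX1 to TNFAIP8L1 (0.218) and a gene with no symbol (0.274). No gene was as near to PITX1, for which a gene with no symbol (0.698) and PRR32 (0.938) came first. PRR32 was at 0.310, 0.151 and 0 FPKM in LT and at 0.0252, 13.3 and 0 in ST. Among the 9 genes, TBX3 and LBX1 were the nearest pair (0.207). With 6 libraries these values describe the shape of the profiles only.

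A further 97 genes of limb and trunk patterning in 5 lists were examined, of which 69 were tested. By limma 1 of them was called, PRRX1, a homeobox gene of limb mesenchyme and fibroblasts, at 8.09, 6.35 and 8.72 FPKM in LT and at 37.6, 19.9 and 39.9 in ST. All ST libraries were far above LT, with ST replicate 2 the lowest of them, and the means were 7.72 ± 1.23 and 32.4 ± 10.95 (SD, n = 3 each, limma adjusted p = 0.0397), with a 95% interval of the log2 fold change from 1.34 to 2.67. The median log2 fold change of the 69 genes was 0.25, and 45 of them (65.2%) had a higher mean log2 in ST, beside 0.13 and 61% for all genes. Of the 69, 17 passed 0.05 before adjustment, beside 19% of all genes, the share to set beside the count of each list. With the pig as a block 7 of the 69 were called, 6 higher and 1 lower in ST. Over all 19679 genes this setting called 838, and 2.95% of all genes were called higher in ST. Among the 7 were PRRX1, MSX1, MSX2, TCF15 and RIPPLY1, which were higher, and PBX3, which was lower. Without ST replicate 2 there were 8 of 65 tested, beside 1006 of 19539 over all genes, where 3.34% were called higher in ST. Of these 8, PRRX1, EN1, TBX18, TCF15, SIM2, RIPPLY1 and EPHA4 were higher and PBX3 was lower.

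Among 24 tested limb bud and limb connective tissue genes, PRRX1 was the 1 called and the median log2 fold change was 0.23. At an unadjusted p under 0.05 there were 6, against 19% of all genes. Of these, 5 also passed the fold, 4 higher and 1 lower in ST, beside 912 and 487 of all 19679 genes. The lower one, OSR2, was at 1.08, 1.52 and 2.41 FPKM in LT and at 0.355, 1.01 and 0.605 in ST (limma adjusted p = 0.153). MSX1, a homeobox gene of limb mesenchyme, was at 1.63, 1.22 and 1.64 FPKM in LT and at 2.59, 3.84 and 3.43 in ST (limma adjusted p = 0.0726, with the block 0.0474). The muscles did not overlap, and unlike in TBX3 and LBX1, ST replicate 2 was the highest ST library.

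Of 18 tested somite and trunk genes none was called with all libraries, and 4 had an unadjusted p under 0.05 (19% of all genes did), with a median log2 fold change of 0.30. Of the 4, PAX1 was lower in ST, at 0.0669, 0.139 and 0.170 FPKM in LT and at 0.0317, 0 and 0.0372 in ST (limma adjusted p = 0.209). RIPPLY1, which acts in forming somite boundaries, was at 0.999, 0.648 and 0.371 FPKM in LT and at 3.41, 1.98 and 2.45 in ST (limma adjusted p = 0.0620, with the block 0.0216). TCF15, a bHLH factor of the somites also known in endothelial cells of muscle, was at 15.7, 15.7 and 12.0 in LT and at 36.7, 21.7 and 40.7 in ST (adjusted p = 0.0803, with the block 0.0495). Both were higher in every ST library than in any LT library. SIM2, a bHLH-PAS factor, was at 0.0285, 0.126 and 0.110 in LT and at 1.82, 0.102 and 3.32 in ST, so that ST replicate 2 was at the level of LT as it was for TBX5.

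Of 12 tested genes of migrating muscle precursors none was called with all libraries, and 2 had an unadjusted p under 0.05, with a median log2 fold change of 0.12. EPHA4, an ephrin receptor, was at 1.61, 1.51 and 1.50 FPKM in LT and at 3.05, 2.60 and 3.88 in ST (limma adjusted p = 0.0729). The chemokine CXCL12, which attracts migrating cells, was at 85.9, 67.4 and 62.3 in LT and at 66.6, 54.8 and 40.9 in ST (adjusted p = 0.367), where the muscles overlapped. MSX1 also belongs to this list.

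The 9 tested HOX cofactors had a median log2 fold change of -0.14, with none called with all libraries and 5 at an unadjusted p under 0.05. PBX3 was at 5.46, 4.10 and 2.46 FPKM in LT and at 1.26, 2.36 and 1.07 in ST (limma adjusted p = 0.119, with the block 0.0426). MEIS1 was at 3.52, 5.34 and 4.82 in LT and at 2.98, 2.45 and 2.22 in ST (adjusted p = 0.117). Both were lower in every ST library than in any LT library.

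Of the 7 tested other T-box genes none was called with all libraries and 1 had an unadjusted p under 0.05, with a median log2 fold change of 0.45. TBX21, a T-box gene of lymphocytes, was at 0.298, 0.178 and 0.0932 FPKM in LT and at 0.523, 0.345 and 0.434 in ST (limma adjusted p = 0.190). TBX1, of head muscle and pharynx, was at 1.78, 1.08 and 2.69 in LT and at 2.20, 13.9 and 3.13 in ST (adjusted p = 0.298). TBX6, of early paraxial mesoderm, was at 0.371, 0.245 and 0.362 in LT and at 0.227, 0.121 and 0.234 in ST (adjusted p = 0.363). TBX1 was highest in ST replicate 2, as PITX1, TBX15 and MEOX1 were.

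**Figure D4:**
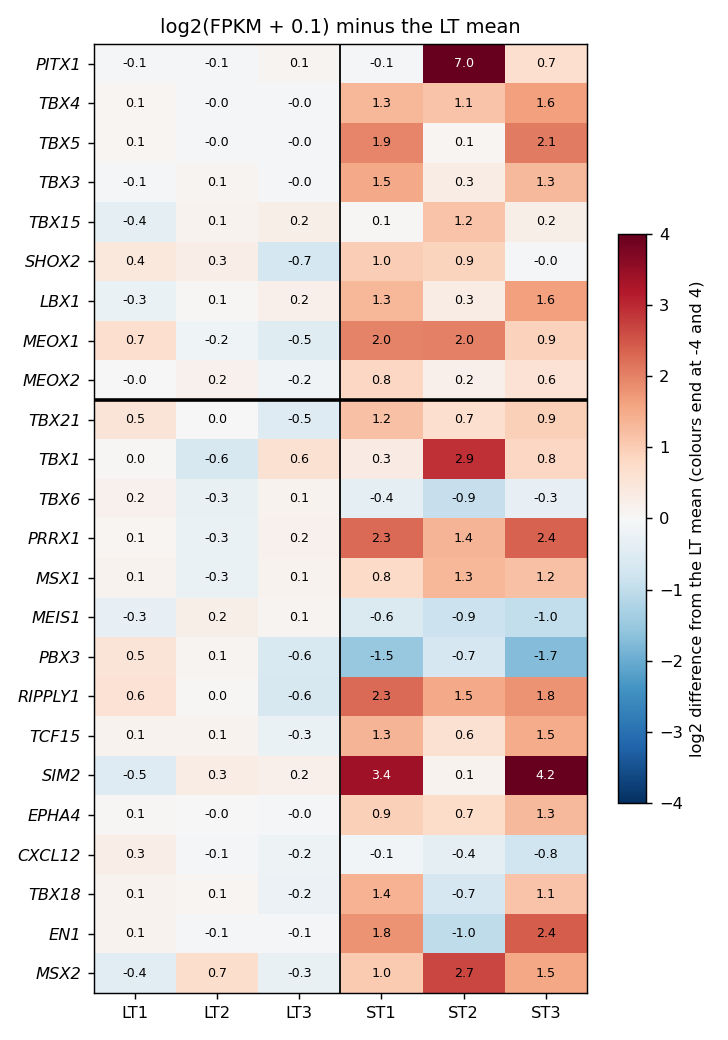
Log2(FPKM + 0.1) of each gene (rows) in each library (columns) minus the gene's mean in LT, with the 9 genes above the line and genes of the lists below it. PITX1 reaches 7.0 in ST replicate 2, while TBX5, SIM2, EN1 and TBX18 are high in ST replicates 1 and 3 alone.

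Markers of other cell types were summed in each library to set beside these levels. Of 9 muscle fibre markers 5 were matched, and all 5 were expressed, at a sum from 11903 to 15252 FPKM in LT and from 11178 to 11481 in ST. In this sum TNNT3 had a lower mean in ST, at 7101 in LT and 1908 in ST. ACTA1 was at 2429 and 2361, while CKM, DES and TNNT1 had higher means in ST, so the sum mixes fibre types. The 3 endothelial markers matched summed to 36.6 to 57.4 in LT and 98.6 to 137 in ST, and PECAM1 and CDH5 were called higher in ST (limma adjusted p = 0.0424 and 0.0399), calls that were lost under some alternatives, with adjusted p up to 0.178 for each. The 4 smooth muscle and pericyte markers summed to 94.0 to 106 in LT and 168 to 224 in ST. The sums of the 7 markers of fibroblasts and muscle connective tissue overlapped, at 572 to 1178 in LT and 611 to 1113 in ST. Those of the 4 satellite cell markers did too, at 10.5 to 14.4 and 11.9 to 14.4, but this sum hides opposite differences. CDH15 was at 7.85, 6.42 and 10.2 in LT and lower in ST, at 3.83, 5.45 and 4.51. CHRNA1, also a gene of muscle fibres, was at 1.87, 2.61 and 2.27 in LT and higher in ST, at 8.11, 3.11 and 7.82. PAX7 and MYF5 overlapped, and none of these markers was called. The 5 tendon markers summed to 32.0 to 36.6 in LT and to 62.8, 29.8 and 98.6 in ST replicates 1, 2 and 3, with replicate 2 the lowest, as it was among the ST libraries for TBX3, TBX4, TBX5, LBX1 and MEOX2, and TNMD was listed at 0 in LT replicate 3 and ST replicate 2. The sums overlapped for adipocytes (65.2 to 180 in LT, 47.3 to 148 in ST, 5 markers), nerve sheath (0.611 to 18.4 and 0.460 to 10.7, 3 markers) and macrophages (10.7 to 13.8 and 9.63 to 25.1, 3 markers). Mitochondrial genes held 5.36% to 8.16% of the summed FPKM in LT and 12.1% to 15.4% in ST. The part of cell type, fibre type or mitochondrial RNA in the differences of the 9 genes was not tested.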

How the data were processed

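LT and ST of 3 pigs gave 6 libraries. After rRNA removal and sequencing, the authors used SOAPnuke to filter reads, HISAT2 to align them to the pig genome (Sscrofa11.1) and StringTie for assembly, and deposited an FPKM value for each transcript. The files give no fragment numbers and the study's read totals were not used here, so no depth was computed for single values. FPKM was summed per gene. Genes with an mRNA entered the test if any library exceeded an FPKM of 0.1. The test was limma 3.58.1 (R 4.3.3), fitted to log2(FPKM + 0.1) with eBayes allowing a variance trend, and p was adjusted by Benjamini-Hochberg. A fold change on this scale understates the change of low genes. Exact permutation tests used Python 3.11.15 and scipy 1.17.1. PITX1 and TBX15 were matched to RefSeq genes of Sscrofa11.1 by position, over 54.3% and 97.0% of the longer span. Strand was not used in this match, and the strands given are those of the Ensembl entries. The members, lists and alternatives were chosen with earlier results of these data known. Named were all members, their transcripts with 10% or more of the gene, the 3 nearby lncRNAs and 3 genes per list with the smallest p, the called genes and the 2 genes most alike. Some items chosen by this rule are not reported here. EN1, TBX18, MSX2, OSR2, PAX1, HOXC11, HOXA10 and the troponins were named after their values were seen.

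The pairing by pig comes from the study's methods and the replicate numbers in the titles. Deviations from the muscle means correlated at 0.301, 0.276 and 0.303 across genes between the LT and ST libraries of pigs 1, 2 and 3. Without the block, p-values measure the spread between the libraries of a muscle, and with it the spread of the differences within pigs. With 1 sample per muscle and pig, a difference between pigs cannot be told from one between samples of a muscle. The fits were tested on simulated data.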

Additional observations from a re-analysis of the deposited data

How the results depend on the processing

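None of the 9 genes changed direction under any alternative that gave it a value. The counts moved more than the directions. Calls over all genes numbered 114 (81 up in ST and 33 down), 74 (45 and 29) with median-ratio scaling, 62 (33 and 29) with quantile normalization, 272 when scaled to nuclear genes, 31 with no filter, 31 with no variance trend, 838 with the pig as replicate block, and from 11 to 1006 when 1 library was left out, the highest without ST replicate 2. Of the 9 genes 1 was called with the replicate block (MEOX1) and from 0 to 3 when 1 library was left out, the 3 without ST replicate 2. Of the listed genes 0 were called with no filter, 0 with no variance trend, 2 when scaled to nuclear genes, 7 with the replicate block, and from 0 to 8 when 1 library was left out. PRRX1 was thus not called without the filter or the trend, or without any 1 library other than ST replicate 2. The transcripts of the 9 genes and nearby lncRNAs stayed at 0 calls. The block changed no other call among the 9 genes. Median log2 fold change over all genes was 0.13, and it was -0.0066 with quantile normalization, 0.0054 with median-ratio scaling and 0.20 when scaled to nuclear genes. PITX1 and TBX5 could not be tested with FPKM above 0.1 in 3 libraries, nor TBX4 and TBX5 with FPKM above 1, nor PITX1 without ST replicate 2. Fragment numbers behind PITX1, TBX4 and TBX5 in LT were not used here, so no limit was computed for values listed at 0.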

Other observations

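Some further genes of the lists, chosen after their values were seen, differed between ST replicate 2 and the other ST libraries. EN1, a homeobox gene of the ventral limb and of dermomyotome, was at 1.03, 0.864 and 0.880 FPKM in LT and at 3.45, 0.402 and 5.35 in ST, so that ST replicate 2 was below LT and the other ST libraries were above it. Without ST replicate 2 its log2 fold change was 2.11 (limma adjusted p = 0.00829), and with all libraries 1.06 (adjusted p = 0.497). EN1 was chosen for its low value in that library, so leaving the library out was bound to raise the fold change. TBX18, a T-box gene of the somites and of pericytes, was likewise below LT in ST replicate 2 and above it in the other ST libraries, at 1.54, 1.48 and 1.16 in LT and at 3.76, 0.829 and 3.16 in ST. MSX2, a relative of MSX1, was at 0.0213, 0.165 and 0.0302 in LT and at 0.230, 0.925 and 0.366 in ST, with ST replicate 2 the highest and all ST libraries above LT. TBX2, which lies 48245 bp from TBX4, was at 2.10, 1.53 and 2.12 in LT and at 3.16, 1.88 and 3.06 in ST (adjusted p = 0.390).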
